A study of Mus musculus with 60 samples.

Results

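Immediate early and activity genes made up 9 of the 770 genes measured, Fos, Jun, Egr1, Arc, Atf3, Maff, Myc, Homer1 and Bdnf, which were taken by symbol and each had a value in every sample analysed. Genes of this kind are transcribed within minutes of a stimulus without new protein synthesis, and in neurons the stimulus is synaptic activity and calcium entry. Fos and Jun encode subunits of the AP-1 transcription factor, Egr1 a zinc finger transcription factor, and Arc a protein that acts on AMPA receptor trafficking at the synapse. Atf3 and Maff encode basic leucine zipper factors that are induced by stress as well as by activity, Myc a growth-related transcription factor, Homer1 a scaffold of the postsynaptic density with an activity-induced short form, and Bdnf the secreted growth factor that signals through TrkB. Neuronal levels of such transcripts can follow light, waking and handling, and some of them, such as Fos, Egr1 and Arc, are widely used as marks of recent activity. Which forms of Homer1 and Bdnf the panel detects could not be looked up.

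The samples were hippocampus, hypothalamus and brain stem of 20 female Balb/C mice, 13 weeks old and housed in 14 h of light and 10 h of dark. There were 4 groups of 5 mice, by tumor status and time of collection. Tumor-bearing mice were those whose mammary glands had been injected orthotopically with 67NR cells (a non-metastatic mouse mammary carcinoma line). Vehicle injected mice received culture medium without cells. Collection was on day 25, in the middle of the dark (ZT19, or 19 h after lights on) or of the light (ZT7). Of 60 samples 56 had values. Those of the brain stem of mouse 8 and the hypothalamus of mice 10, 12 and 32, all vehicle injected, are labelled as outliers, which left 20 hippocampus, 17 hypothalamus and 19 brain stem samples and only 3 in the hypothalamus group of vehicle mice at mid dark. The assay was a nanoString nCounter panel of neuroinflammation genes, in which barcoded probes hybridized to transcripts are counted, and values are the log2 of normalized counts. A difference of 1 on this scale corresponds to a doubling. Depth is unknown without the raw counts, and precision rests on how many mice there were.

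The levels of neuronal markers differed between the 3 regions, not all in the same direction. The mean log2 value of 6 neuron markers had a median of 12.29 for hippocampus, 11.79 for hypothalamus and 11.49 for brain stem, and the mean of 5 forebrain neuron markers had medians of 11.62, 8.63 and 8.66. Of the 6 neuron markers, Nefl and Stmn1 were higher in brain stem than in hippocampus (means 12.28 against 11.03, and 14.30 against 13.33). Rbfox3, Syp, Syn2 and Islr2 were lower there, Islr2 by far the most (5.70 against 10.44). Ttr, a choroid plexus transcript, ran from 5.36 to 14.71 in hippocampus. The A260/A280 purity ratio of the RNA was under 1.8 in 5 of 19 brain stem samples, 3 of them from tumor-bearing mice at mid dark, and in 1 of 20 hippocampus samples.

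Promoter sequence is shown for 4 of the genes as background, and its relation to their expression was not tested. Each run holds the 250 bases before an annotated transcription start in RefSeq (GRCm38.p6, the reference mouse assembly and not that of Balb/C), written 5′ to 3′ on the strand of the gene. Capitals mark the core of the cAMP response element, TGACG or its reverse complement CGTCA, to which CREB binds, and the TATA box, TATAAA on the strand of the gene. The Fos run lies at chr12:85473640-85473889 on the plus strand, the Jun run at chr4:95052223-95052472 on the minus strand, the Homer1 run at chr13:93303507-93303756 and the Bdnf run at chr2:109692186-109692435, both on the plus strand.
Fos: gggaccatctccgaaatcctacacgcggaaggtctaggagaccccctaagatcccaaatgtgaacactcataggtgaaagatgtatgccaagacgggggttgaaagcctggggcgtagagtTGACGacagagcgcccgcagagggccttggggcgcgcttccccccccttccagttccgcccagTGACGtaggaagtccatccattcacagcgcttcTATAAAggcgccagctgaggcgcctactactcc
Jun: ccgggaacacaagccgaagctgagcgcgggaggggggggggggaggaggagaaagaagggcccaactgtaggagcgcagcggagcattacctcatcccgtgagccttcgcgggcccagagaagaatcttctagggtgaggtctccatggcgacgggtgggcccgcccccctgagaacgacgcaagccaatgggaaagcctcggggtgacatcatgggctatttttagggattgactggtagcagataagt
Homer1: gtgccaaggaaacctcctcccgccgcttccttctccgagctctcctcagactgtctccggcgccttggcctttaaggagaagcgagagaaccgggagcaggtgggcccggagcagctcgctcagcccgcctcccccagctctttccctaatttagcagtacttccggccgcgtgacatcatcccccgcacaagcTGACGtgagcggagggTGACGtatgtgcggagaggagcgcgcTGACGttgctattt
Bdnf: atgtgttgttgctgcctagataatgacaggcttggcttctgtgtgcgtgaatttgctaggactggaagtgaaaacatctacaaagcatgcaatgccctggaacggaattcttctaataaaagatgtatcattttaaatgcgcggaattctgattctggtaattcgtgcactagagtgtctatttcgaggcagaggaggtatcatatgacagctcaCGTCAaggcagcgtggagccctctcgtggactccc
The Fos run held the core 2 times, with first bases 66 and 129 bases before the start, and a TATA box 33 bases before it. Homer1 held the core 3 times within 56 bases of the start, while Jun held none of the motifs searched. Bdnf has several starts, and the run shown is 1 of 7 and the only Bdnf promoter with a core, 35 bases before the start. Promoters of 6 of the 9 genes were searched, 15 promoters in all. The Egr1 promoter is not reported here, and Arc and Myc had no promoter listed. The core was found in 6 of the 15 promoters, belonging to Atf3, Bdnf, Fos, Homer1 and Maff. Among 32851 mouse promoters of the same length, 17.8% held the core. The full palindrome TGACGTCA, which contains both forms of the core, occurred in 1 Maff promoter and in 1.55% of all promoters. AP-1 sites (TGACTCA or TGAGTCA) and CArG boxes, the sites of serum response factor, were found in none of the 15, against 4.46% and 1.47% of all promoters, and the TATA box in 1 of 15 against 7.59%. The counts over the 15 promoters cover only these 250 bases, and tell nothing of sequence beyond them or of Egr1, Arc and Myc. A match of letters is not evidence of binding.

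**Figure D1:**
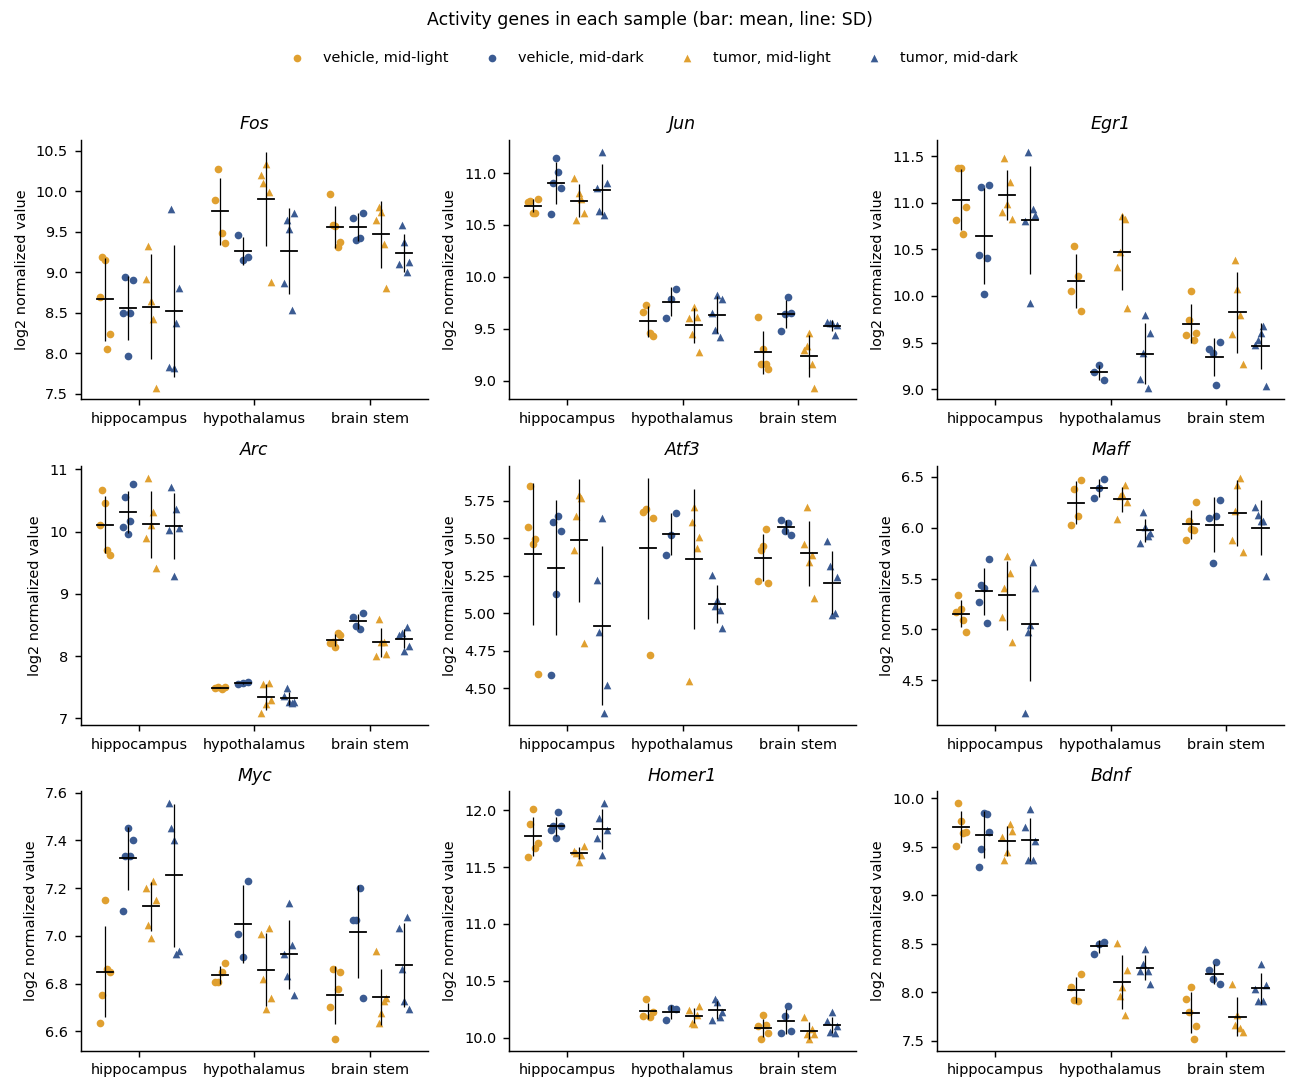
Log2 normalized value (vertical axis) of each of the 9 genes in every sample, by region (horizontal axis). Circles are vehicle injected and triangles tumor-bearing mice, orange is mid light and blue mid dark, the horizontal bar is the mean of a group and the vertical line its SD. Arc, Homer1, Bdnf, Jun and Egr1 sit highest in hippocampus, and all 8 blue points of Egr1 in hypothalamus lie below the 9 orange ones.

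Most of the 9 genes differed between regions. Expression was compared between regions of the same mouse with a model that held the mouse as a block, and 8 of the 9 genes differed between hippocampus and hypothalamus, 8 between hippocampus and brain stem, and 4 between hypothalamus and brain stem (limma, Benjamini-Hochberg adjusted p under 0.05 over all genes). Region separated most of the panel as well: 71.4%, 75.7% and 66.8% of the 770 genes passed in the 3 comparisons. The median difference of the 9 genes was 1.08 on the log2 scale for hippocampus minus hypothalamus, 1.29 for hippocampus minus brain stem and 0.13 for hypothalamus minus brain stem, against -0.05, -0.03 and 0.02 over all genes.

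Between hippocampus and each of the other regions, the synaptic genes Arc, Homer1 and Bdnf differed most. Arc had a log2 level of 10.16 ± 0.44 in hippocampus (SD, n = 20), 7.41 ± 0.16 in hypothalamus (SD, n = 17) and 8.32 ± 0.20 in brain stem (SD, n = 19). The lowest hippocampus sample, at 9.29, was above the highest of both other regions, 7.59 and 8.69. Within mice, hippocampus exceeded hypothalamus by 2.71 on the log2 scale (SE 0.09) and brain stem by 1.82 (SE 0.08), and the brain stem level was above that of hypothalamus in 16 of 16 mice. Homer1 was higher in hippocampus than in hypothalamus by 1.54 (SE 0.03) and than in brain stem by 1.67 (SE 0.03), and it had the smallest SD of the 9 genes in each region, its 17 hypothalamus samples lying between 10.12 and 10.34. Bdnf was higher in hippocampus by 1.39 (SE 0.05) and 1.68 (SE 0.05), in every mouse with both regions. Between hypothalamus and brain stem, Bdnf was higher in hypothalamus by 0.29 (SE 0.06, adjusted p = 3.63e-05) in 16 of 16 mice. Egr1 also passed between hypothalamus and brain stem, where its difference was 0.22 (adjusted p = 0.0787), when mouse 5, 8, 11, 12 or 19 was left out, and Maff, at 0.18 (adjusted p = 0.0746), when mouse 3 was.

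Among the transcription factors, Jun was higher in hippocampus by 1.16 (SE 0.04) over hypothalamus and by 1.37 (SE 0.04) over brain stem. Egr1 was higher there by 1.08 (SE 0.11) and 1.29 (SE 0.10), in 17 of 17 and 19 of 19 mice. Myc differed less, by 0.22 (SE 0.05) and 0.29 (SE 0.05). Fos went the other way, lower in hippocampus than in hypothalamus by 0.97 on the log2 scale (SE 0.10) in 16 of 17 mice and than in brain stem by 0.88 (SE 0.10) in 18 of 19. Maff was also lower in hippocampus in every mouse, by 1.00 (SE 0.09) and 0.82 (SE 0.08). For Atf3, at 5.28 ± 0.48 in hippocampus (SD, n = 20) and 5.32 ± 0.37 in hypothalamus (SD, n = 17), no pair of regions passed the test (hippocampus minus hypothalamus -0.07, 95% confidence interval -0.30 to 0.16).

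Lists of related genes are set beside the 71.4% of all genes that passed between hippocampus and hypothalamus. Of 20 genes of calcium and CREB signaling, 10 were higher and 9 lower in hippocampus than in hypothalamus, with a median difference of 0.06. Of 10 synapse genes 8 were higher and 2 lower, with a median of 0.51. Of 16 other rapidly induced genes 2 were higher and 9 lower, with a median of -0.24. All 5 forebrain neuron markers were higher in hippocampus, with a median difference of 3.18, and 5 of 6 oligodendrocyte markers were lower. A bulk sample cannot tell fewer cells of a type from less RNA per cell, and the part of cell composition in the differences between regions was not tested.

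Time of day was compared within each region as the mid dark minus mid light difference, averaged over tumor-bearing and vehicle injected mice. Egr1 in hypothalamus showed the largest difference among the 9 genes. The log2 levels of the tumor-bearing mice were 9.11, 9.39, 9.80, 9.02 and 9.60 at mid dark, against 10.31, 10.48, 10.86, 10.83 and 9.87 at mid light. Those of the vehicle injected mice were 9.18, 9.26 and 9.10, against 10.05, 10.53, 10.21 and 9.84. Every mid dark sample was below every mid light sample, the highest at mid dark being 9.80 and the lowest at mid light 9.84. The difference was -1.03 on the log2 scale (SE 0.15, 95% confidence interval -1.35 to -0.71, adjusted p = 0.000826).

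Egr1 was the 1 of 9 genes that passed in hypothalamus, where 2.34% of all genes passed. Its difference was -1.09 (SE 0.19, adjusted p = 0.00578) in tumor-bearing mice, where 1 of 9 genes and 1.04% of all genes passed, and -0.98 (SE 0.23, adjusted p = 0.0958) in vehicle injected mice, of which 3 were collected in the dark and 4 in the light. In a fit of the tumor-bearing groups alone the difference was the same, with an adjusted p of 0.0534. Egr1 was also lower at mid dark in brain stem, by 0.36 on the log2 scale (SE 0.13), and in hippocampus, by 0.33 (SE 0.19), neither past the test (adjusted p = 0.143 and 0.362). In brain stem 8 of 9 mid dark samples were below the mid light median, and the difference passed without mouse 29 (-0.43, adjusted p = 0.0458).

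Fos in hypothalamus had the next lowest difference, -0.56 (SE 0.23, 95% confidence interval -1.04 to -0.08), with an adjusted p of 0.291. Its log2 level ran from 8.53 to 9.73 at mid dark, with a median of 9.32 (n = 8), and from 8.88 to 10.34 at mid light, with a median of 9.99 (n = 9). All 8 mid dark samples were below the mid light median, and 6 of 9 mid light samples were above every mid dark one. The groups overlapped through 3 mid light mice, of which the tumor-bearing mouse 29, at 8.88, was the lowest. The Fos differences were -0.08 (SE 0.26) in hippocampus and -0.12 (SE 0.13) in brain stem.

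Jun and Bdnf rose at mid dark in brain stem, where 2 of the 9 genes passed and 4.94% of all genes. Jun had log2 levels of 9.44 to 9.81 at mid dark with a median of 9.56 (n = 9), and of 8.94 to 9.62 at mid light with a median of 9.23 (n = 10). All 9 mid dark samples were above the mid light median, the 2 ranges overlapping only through the vehicle injected mouse 2, at 9.62, and the tumor-bearing mouse 9, at 9.46. The difference was 0.33 (SE 0.07, adjusted p = 0.0125). Bdnf ran from 7.91 to 8.31 at mid dark with a median of 8.08 (n = 9), and from 7.52 to 8.09 at mid light with a median of 7.71 (n = 10). Its difference was 0.35 (SE 0.08, adjusted p = 0.015), and again all 9 mid dark samples were above the mid light median. Without the brain stem samples of A260/A280 under 1.8 the Bdnf difference was 0.38 with an adjusted p of 0.0958, and the Jun difference 0.35 with an adjusted p of 0.0139.

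In hypothalamus the Bdnf difference was 0.30 (SE 0.09, adjusted p = 0.109), and 8 of 8 mid dark samples were above the mid light median of 8.06. Without mouse 1 the hypothalamus difference passed the test (0.35, adjusted p = 0.0187). Hippocampus gave -0.03 for Bdnf (SE 0.09). For Jun the difference was 0.16 (SE 0.08) in hippocampus and 0.14 (SE 0.08) in hypothalamus, neither past the test. Arc in brain stem differed by 0.18 (SE 0.07, adjusted p = 0.205), and passed without mouse 5 (0.23, adjusted p = 0.043). It also passed with the neuron marker mean as a covariate (0.18, adjusted p = 0.0443).

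Myc was the 1 of 9 genes to pass in hippocampus, where 5.59% of all genes did. The levels were 6.92 to 7.56 at mid dark with a median of 7.37 (n = 10) and 6.63 to 7.23 at mid light with a median of 7.02 (n = 10), and 7 of 10 mid dark samples were above every mid light one. The difference was 0.30 (SE 0.09, adjusted p = 0.0429), close to the threshold: over 20 fits that each lacked 1 mouse the difference lay between 0.266 and 0.345 (adjusted p 0.0149 to 0.0856), and it passed only without mouse 4, 10, 13, 19 or 23. In vehicle injected mice it was 0.48 (SE 0.12, adjusted p = 0.0435), where 1 of 9 genes and 2.34% of all genes passed, and in tumor-bearing mice 0.13 (SE 0.12, adjusted p = 0.747). The Myc differences were 0.14 (SE 0.07) in hypothalamus and 0.20 (SE 0.07) in brain stem, where it passed without mouse 32 (0.25, adjusted p = 0.0372). The hippocampus call in vehicle injected mice held only without mouse 3, 4, 7, 10, 13, 19 or 23, and not in a fit of the 2 groups alone (adjusted p = 0.057), and the difference between tumor-bearing and vehicle injected mice was -0.35 (interaction adjusted p = 0.696). Homer1 had a difference of 0.15 in hippocampus (SE 0.06, adjusted p = 0.179), with 9 of 10 mid dark samples above the mid light median of 11.66.

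**Figure D2:**
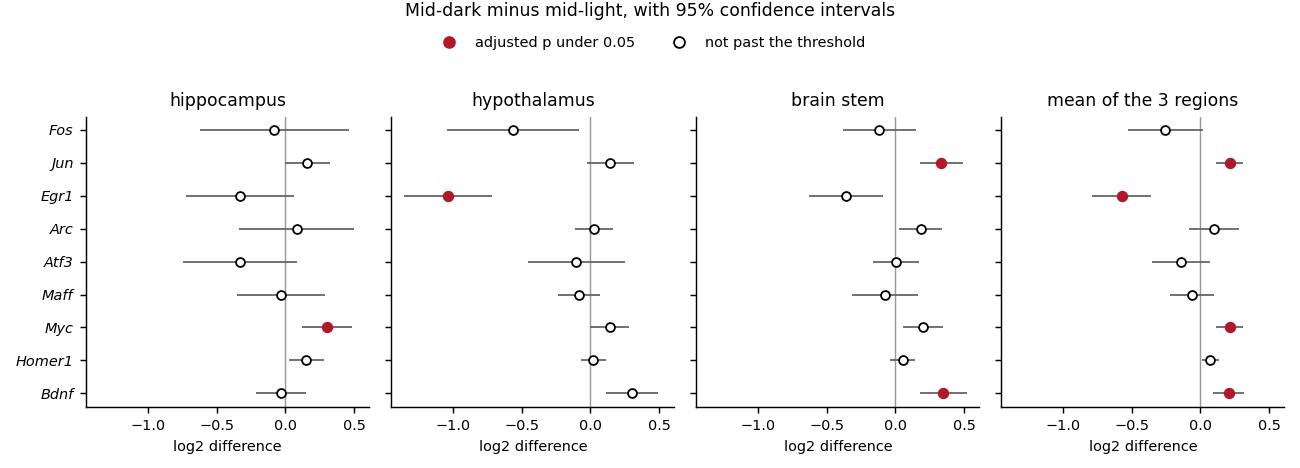
Mid dark minus mid light difference on the log2 scale (horizontal axis) of the 9 genes, in each region and over the mean of the 3 regions. Points are estimates, lines 95% confidence intervals, and filled points passed an adjusted p of 0.05. Egr1 lies left of 0 and Jun and Myc right of 0 in all 4 panels, and the Egr1 interval in hypothalamus runs from -1.35 to -0.71.

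Averaged over the 3 regions, with samples of the same mouse allowed to be correlated, 4 of the 9 genes differed by time of day, against 13.5% of all genes. Egr1 fell by 0.57 on the log2 scale at mid dark (SE 0.11, adjusted p = 8.52e-05). Jun rose by 0.21 (SE 0.05, adjusted p = 0.00133), Myc by 0.21 (SE 0.05, adjusted p = 0.00187) and Bdnf by 0.20 (SE 0.06, adjusted p = 0.00848). The remaining members were Fos at -0.26 (SE 0.13), Atf3 at -0.14 (SE 0.11), Maff at -0.06 (SE 0.08), Homer1 at 0.07 (SE 0.03) and Arc at 0.10 (SE 0.09). These 4 calls held with each mouse left out, while Fos also passed without mouse 29 (-0.37, adjusted p = 0.0424) and Homer1 without mouse 10 (0.09, adjusted p = 0.0385). This fit used 1 correlation, 0.136, between samples of a mouse for all genes. Between pairs of regions the r across mice was 0.66, 0.69 and 0.78 for Fos and 0.78, 0.31 and 0.61 for Jun. For these genes the SE and adjusted p of the mean over regions can therefore be too small. The median over the 9 genes was 0.07, against 0.01 over all genes.

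Whether the time of day difference itself varied between regions was tested with an interaction of region and phase. By limma, 0 of 9 genes passed after adjustment and 3 at an unadjusted p under 0.05, against 0.13% and 6.62% of all genes. Egr1 and Bdnf had the lowest adjusted p, 0.189 each. Egr1 passed when the tumor-bearing mouse 11 was left out (adjusted p = 0.0101). With all mice and after adjustment over all genes, the larger Egr1 difference in hypothalamus is not shown to differ from those of the other regions. Their 95% confidence intervals ran from -0.72 to 0.06 in hippocampus and from -0.63 to -0.09 in brain stem. The hypothalamus interval given above barely overlaps that of hippocampus and does not overlap that of brain stem, and overlap was not used as a test.

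Of the listed pathway genes, those called for time of day are set beside the 13.5% of all genes called in the mean of the 3 regions. There, 3 of 20 calcium and CREB genes rose at mid dark: Rapgef3, a cAMP-activated exchange factor, by 0.19 (SE 0.04), Crebbp, the CREB coactivator, by 0.14 (SE 0.03), and Creb1 by 0.11 (SE 0.03). Of 11 genes of the MAP kinase relay, 3 rose (Dusp7, Map3k1 and Mapk10, by 0.06 to 0.11). Of 16 other rapidly induced genes, Cdkn1a, a cell cycle inhibitor, rose by 0.38 (SE 0.05) and Tnfrsf12a by 0.21 (SE 0.06), while Nfkbia fell by 0.24 on the log2 scale (SE 0.07). Of 10 synapse genes only Lingo1 passed, at -0.19 (SE 0.06). The medians of the 4 lists lay between 0.01 and 0.05.

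Oligodendrocyte markers moved with time of day. In the mean of the 3 regions, where 13.5% of all genes passed, 4 of 6 oligodendrocyte markers (Cnp, Mag, Mog and Opalin) were lower at mid dark, with a list median of -0.305, and the neuron markers had 0 of 6 called by limma, 0 of 6 at an unadjusted p under 0.05 and a median of 0.04. Of 5 astrocyte markers 1 was called (Sox9, 0.13), of 5 endothelial markers 1 (Cldn5, 0.37), and of 5 microglia markers 0, with 3 at an unadjusted p under 0.05 and a median of -0.09. By region, 4 of 6 oligodendrocyte markers fell in hippocampus (median -0.47), 1 of 6 in hypothalamus (median -0.20) and 4 of 5 tested in brain stem (median -0.21). The mean of the 6 markers ran from 12.35 to 12.57 in brain stem at mid dark against 12.71 to 12.91 at mid light, and from 10.53 to 11.55 in hippocampus against 11.28 to 12.06. The part of the oligodendrocyte, astrocyte, endothelial and microglia markers in the differences of Jun, Bdnf and Myc was not tested. With the neuron marker mean as a covariate, Egr1 in hypothalamus stayed at -1.04 (adjusted p = 0.00169), and Jun and Bdnf in brain stem at 0.33 and 0.35 (adjusted p = 0.0136 and 0.0102), while Myc in hippocampus, at 0.27, no longer passed (adjusted p = 0.0612), nor did Myc in the vehicle injected mice there (0.41, adjusted p = 0.116).

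Tumor status was compared as tumor-bearing minus vehicle injected, averaged over both times of day. By limma 0 of the 9 genes passed in any of the 3 regions, where in hippocampus, hypothalamus and brain stem 0.52%, 0.26% and 1.04% of all genes did. At an unadjusted p under 0.05 there were 0 of 9 in hippocampus, 2 in hypothalamus (Arc and Maff) and 2 in brain stem (Arc and Atf3), against 6.37%, 7.14% and 6.5% of all genes. Averaged over the 3 regions 0 of 9 passed with adjustment and 0 without it, against 2.34% and 9.48%. The median of the 9 genes was -0.07 in each region, against -0.01, 0.00 and -0.01 over all genes.

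The intervals below bound the size of a tumor effect averaged over the 3 regions and both times of day. They do not bound it in a single region or at a single time of day, and those of Atf3, Maff and Homer1 are not given. Over the mean of the 3 regions the 95% confidence interval was -0.34 to 0.21 for Fos, -0.06 to 0.37 for Egr1, -0.34 to 0.02 for Arc, -0.15 to 0.04 for Jun, -0.20 to 0.02 for Bdnf and -0.11 to 0.09 for Myc. A doubling lies outside all of these as fitted. The intervals of Fos, Jun and Arc can be too narrow, as their r between regions (0.31 to 0.78) was above the 0.136 used. Arc in hypothalamus was the member with the lowest unadjusted p. Its log2 level was 7.36, 7.48, 7.27, 7.24 and 7.25 for the tumor-bearing group at mid dark, and the mid light group had 7.08, 7.55, 7.23, 7.57 and 7.29. Vehicle injected mice had 7.56, 7.58 and 7.59 (mid dark) and 7.49, 7.50, 7.47 and 7.50 (mid light). The difference was -0.20 (SE 0.07, 95% confidence interval -0.34 to -0.06, adjusted p = 0.365), and the 7 vehicle injected samples kept within 7.47 to 7.59 while 8 of 10 tumor samples were below the vehicle median of 7.50. Arc in brain stem, at -0.16 (SE 0.07), had the same sign.

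**Figure D3:**
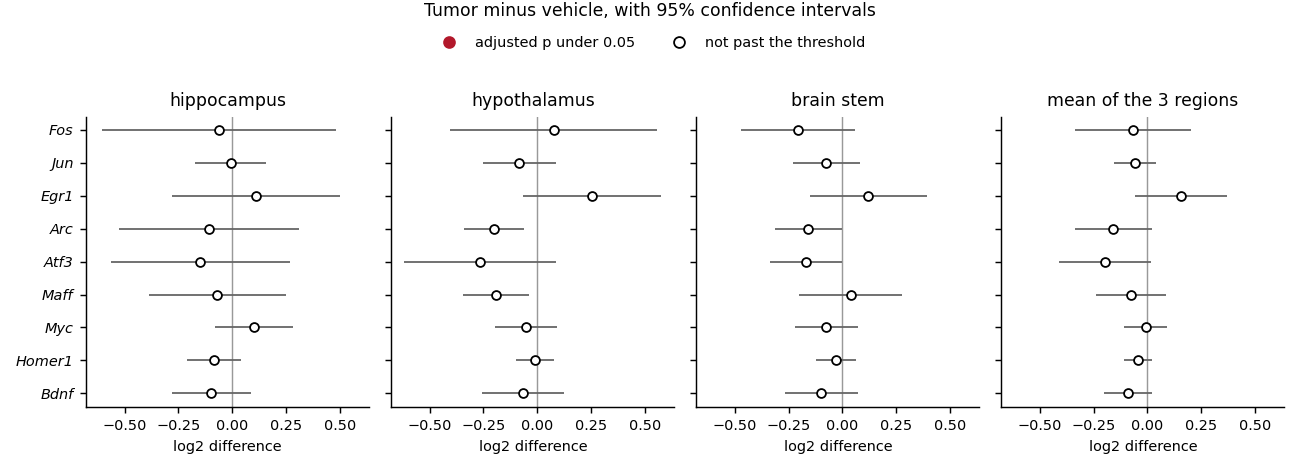
Tumor minus vehicle difference on the log2 scale (horizontal axis) of the 9 genes, in each region and over the mean of the 3 regions. Points are estimates and lines 95% confidence intervals, and open points did not pass an adjusted p of 0.05. All 36 points are open, and the intervals of Fos, Egr1, Arc and Atf3 in hippocampus are the widest there.

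The interaction of tumor and phase asks whether the tumor difference varied with the time of day. By limma 0 of 9 genes passed in any of the 3 regions, as did 0% of all genes in each. At an unadjusted p under 0.05 there were 0 of 9 in hippocampus, 1 in hypothalamus (Maff, -0.45, SE 0.14) and 1 in brain stem (Atf3, -0.40, SE 0.16), against 6.11%, 2.6% and 3.64% of all genes. Maff in hypothalamus had log2 levels of 5.85 to 6.15 with tumor and 6.29 to 6.48 without at mid dark, ranges that did not overlap. The mid light ranges, 6.08 to 6.42 and 6.02 to 6.47, overlapped. Its adjusted p was 1.

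Among the other rapidly induced genes, Ptgs2, which encodes the prostaglandin-forming cyclooxygenase 2, was higher in tumor-bearing mice by 0.71 in brain stem (SE 0.13, adjusted p = 0.00713), the 1 of 16 of that list called in any region alone. Over the mean of the 3 regions, where 2.34% of all genes passed, 3 of 16 rose, Ptgs2 by 0.40 (SE 0.10), Nfkbia by 0.24 (SE 0.07) and Cdkn1a by 0.19 (SE 0.05). By limma the mean over the regions gave 0 of 20 calcium and CREB genes, 0 of 11 MAP kinase genes and 0 of 10 synapse genes, with 0, 1 and 1 at an unadjusted p under 0.05. Of 5 endothelial markers 3 were called in the same comparison, Slc2a1 at 0.21, Esam at 0.14 and Emcn at -0.21, and their part in the differences of Ptgs2, Nfkbia and Cdkn1a was not tested.

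In hippocampus mice of the same group differed in Fos, Egr1 and Arc, with SDs within groups of 0.27 to 0.81, and the 3 genes were high and low together. Each value was taken as the deviation from the mean of its group, so that tumor status and time of day were removed, and 36 pairs of members were compared in each region, 108 in all (two-sided test with 100000 permutations within groups, Benjamini-Hochberg adjusted). Pearson's r was 0.88 between Egr1 and Arc (adjusted permutation p = 0.00108; Spearman's rho 0.88, adjusted p = 0.00324), 0.84 between Fos and Arc (adjusted permutation p = 0.00612; rho 0.84, adjusted p = 0.0072) and 0.78 between Fos and Egr1 (adjusted permutation p = 0.00612; rho 0.77, adjusted p = 0.0072), over 20 mice. The unadjusted permutation p was 1e-05, the smallest that the permutations can give, for Egr1 with Arc, 0.00017 for Fos with Arc and 0.00013 for Fos with Egr1. Without the 2 mice farthest from the median the r were 0.86, 0.79 and 0.75.

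Single mice show the pattern. The tumor-bearing mouse 7 at mid dark was above its group mean by 1.25 on the log2 scale for Fos, 0.73 for Egr1 and 0.63 for Arc, and the tumor-bearing mouse 5 at mid light by 0.75, 0.40 and 0.75. Mouse 11, tumor-bearing at mid dark, had deviations of -0.70, -0.89 and -0.80. The relation held in each group of mice: Egr1 with Arc gave 0.96 at mid dark, 0.88 at mid light, 0.91 with tumor and 0.84 with vehicle (n = 10 each). With each mouse left out, the 3 r stayed between 0.71 and 0.90 and all 3 passed the test.

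No pair with any of the other 6 members passed the adjusted test in hippocampus. Homer1 had an r of 0.58 with Egr1 and 0.51 with Arc. Jun had r of -0.31 with Fos, -0.57 with Egr1 and -0.47 with Arc. Its highest r was with Bdnf, 0.72 (adjusted permutation p = 0.0566), which came from mid dark mice (r 0.92, n = 10) more than from mid light ones (r 0.18, n = 10), a difference that was not tested. That pair passed when mouse 2, 9, 10, 22, 29 or 30 was left out (adjusted permutation p from 0.0231). The median absolute r over the 36 pairs was 0.38, against 0.21 over all gene pairs of the panel, and 4 of 36 pairs exceeded 0.7 in size, against 1.21% of all pairs.

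Hypothalamus and brain stem had 0 pairs past the adjusted test, while 17 of the 108 pairs, hippocampus included, had an unadjusted permutation p under 0.05. In hypothalamus Fos and Egr1 had an r of 0.80 (adjusted permutation p = 0.0566), Jun and Egr1 0.74 (adjusted permutation p = 0.0779) and Fos and Jun 0.68 (adjusted permutation p = 0.12), over 17 mice. Arc had an SD of 0.16 over all hypothalamus samples, against 0.44 in hippocampus, and its r with Fos was 0.06. In brain stem Fos and Jun had an r of 0.71 (adjusted permutation p = 0.0837), which fell to 0.46 without the 2 farthest mice and to 0.24 without samples of A260/A280 under 1.8 (adjusted permutation p = 0.842). Single mice moved some of these pairs past the test, Fos and Egr1 in hypothalamus without mouse 22 (r 0.83), and in brain stem Fos and Jun without mouse 28 (r 0.80), Homer1 and Bdnf without mouse 22 (r 0.74) and Arc and Bdnf without mouse 5 or 29 (r -0.71 and -0.77). The median absolute r of the 36 pairs was 0.16 in hypothalamus and 0.26 in brain stem, against 0.23 and 0.22 over all pairs of the panel.

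**Figure D4:**
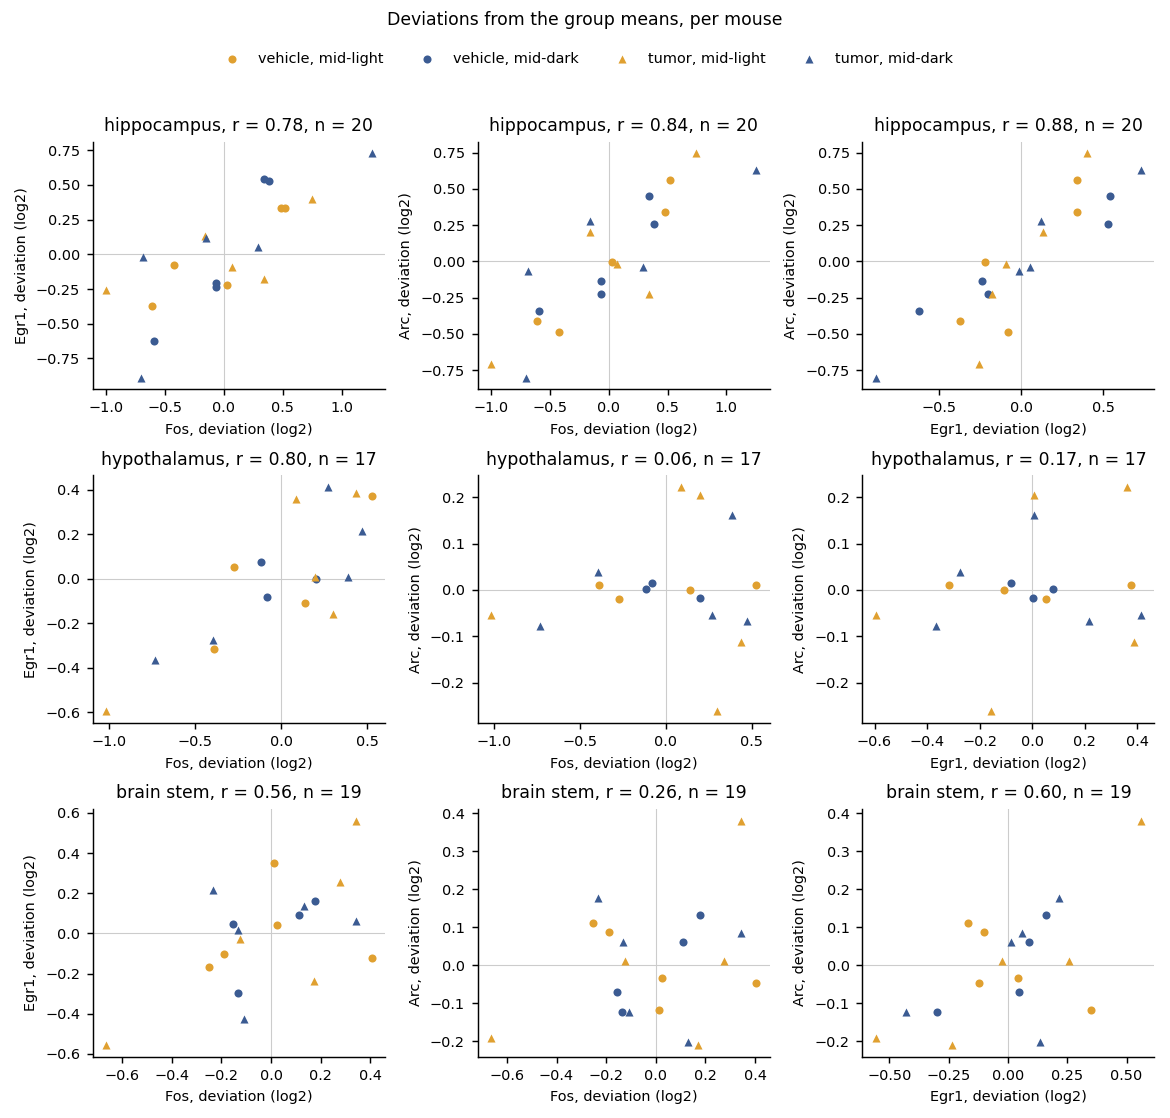
Deviation of each mouse from its group mean, in log2 units, for Fos, Egr1 and Arc in pairs (axes) and in the 3 regions (rows). Each point is a mouse, with colour for time of day and shape for tumor status. The hippocampus points of the top row follow a line in all 3 panels (r 0.78, 0.84 and 0.88), and Arc is flat against Fos in hypothalamus (r 0.06).

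Cell composition and RNA purity were set beside these deviations. In hippocampus the neuron marker mean had an r of 0.25 with Fos, 0.37 with Egr1 and 0.31 with Arc, and A260/A280 an r of 0.40, 0.36 and 0.20 (n = 20). In brain stem Arc followed the neuron marker mean, with an r of 0.79 (n = 19), and Fos had an r of 0.51 with A260/A280. With the neuron marker mean removed, 8 pairs passed the adjusted test in place of 3, the hippocampus pairs of Fos, Egr1 and Arc among them.

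The same mouse was then compared between regions, over 27 relations. For Fos, r was 0.66 between hippocampus and hypothalamus (n = 17, adjusted permutation p = 0.117), 0.69 between hippocampus and brain stem (n = 19, adjusted permutation p = 0.0421) and 0.78 between hypothalamus and brain stem (n = 16, adjusted permutation p = 0.0421). Spearman's rho was 0.65, 0.65 and 0.71, with adjusted permutation p of 0.105, 0.0949 and 0.0949. Without the 2 farthest mice r was 0.52, 0.52 and 0.76. These values lay near the top of the panel, as 2.73%, 3.12% and 1.17% of genes had an r at least as high, and the median r over all genes was 0.14, 0.16 and 0.16.

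The tumor-bearing mouse 29 at mid light was low in all 3 regions, with a Fos level below its group mean in hippocampus, hypothalamus (deviation -1.02) and brain stem (-0.66). Its brain stem sample had an A260/A280 of 1.51, so that sample is also among those left out below for a ratio under 1.8. Without mouse 29 r was 0.58 between hippocampus and brain stem and 0.61 between hypothalamus and brain stem, with adjusted permutation p of up to 0.213. With each mouse left out in turn, r stayed at 0.52 or above for the 3 pairs of regions, but both called Fos pairs passed only without mouse 2, 6, 8, 10, 11 or 23. Without samples of A260/A280 under 1.8 neither passed (hippocampus and brain stem r 0.72, adjusted permutation p = 0.07, and hypothalamus and brain stem r 0.65, adjusted permutation p = 0.125), and the former did not with the neuron marker mean removed (r 0.66, adjusted permutation p = 0.062). The pair of hippocampus and hypothalamus passed without mouse 11 (r 0.78, adjusted permutation p = 0.049). Maff between hypothalamus and brain stem had an r of 0.51 with all samples (adjusted permutation p = 0.167). Without samples of A260/A280 under 1.8 it passed (r 0.79, adjusted permutation p = 0.0217).

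Jun had an r of 0.78 between hippocampus and hypothalamus (n = 17, adjusted permutation p = 0.0294; rho 0.78, adjusted p = 0.0516), and 0.74 without the 2 farthest mice. It did not pass without mouse 3, 4, 7, 13, 19 or 28, with r of 0.74 or above. Its r was 0.61 between hypothalamus and brain stem and 0.31 between hippocampus and brain stem, both short of the test, although the first passed without mouse 6 (r 0.71). By rank, 0 of the 27 relations passed after adjustment, and 7 of the 27 had an unadjusted permutation p under 0.05 for Pearson's r. Egr1 had an r of 0.01 between hippocampus and hypothalamus (n = 17), 0.37 without the 2 farthest mice, and of 0.34 for each of the other pairs of regions. Arc lay between, at 0.53, 0.57 and 0.57 for the 3 pairs of regions.

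**Figure D5:**
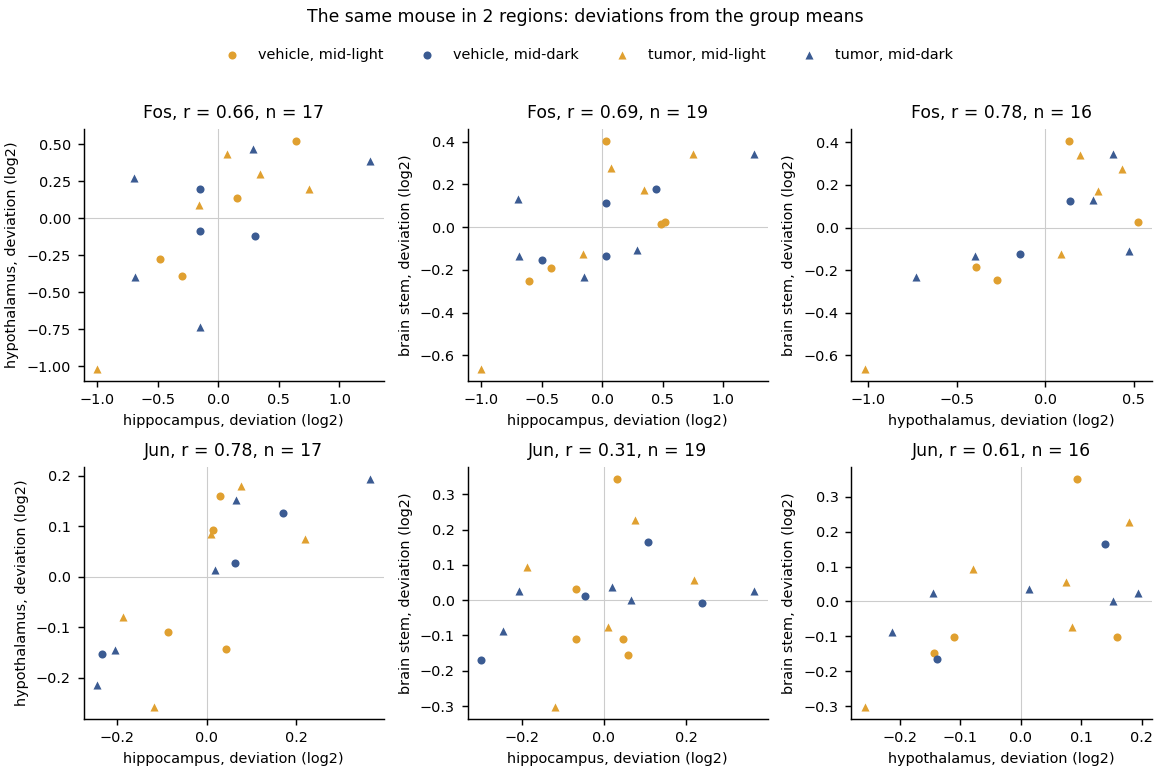
Deviation from the group mean, in log2 units, of the same mouse in a pair of regions (axes) for Fos (top row) and Jun (bottom row). Each point is a mouse, with colour for time of day and shape for tumor status. The lowest point in all 3 Fos panels is mouse 29, and r is given above each panel.

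For each member the gene outside the set with the most similar deviations was found among 760 genes, by the mean r over the 3 regions, as a description with no test. For Fos it was Slco2b1 (mean r 0.66), for Egr1 Lag3 (0.59), for Arc Fscn1 (0.66, with 0.91 in brain stem), for Jun Ptgs2 (0.47) and for Bdnf Tbp (0.69). For Myc it was Crebbp (0.59), for Homer1 Irf2 (0.55), for Maff Bcl10 (0.54) and for Atf3 Cd14 (0.46). Atf3 and Jun had the least similar partners, and samples of a region share their dissection and their normalization.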

How the data were processed

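Values came from the nanoString nCounter Mouse Neuroinflammation Panel. From the raw counts the authors subtracted the negative background and normalized to positive controls and codeset content in nSolver v3, then applied quantile normalization in Partek GS v6.6, and deposited log2 values of 770 genes. Quantile normalization gives every sample the same distribution, so differences are relative to the panel. Groups (region, tumor or vehicle, phase) and mouse numbers came from the labels, and mice are replicates. Within a region p values rest on the spread between mice of a group, and for pairs of regions on the spread of differences within mice. For means over regions they rest on the spread of all samples within groups, with 1 correlation for all genes. The 9 genes and the gene lists were chosen with earlier results of these data known. For each region limma 3.58.1 (R 4.3.3) fitted 4 group means, with 16, 13 and 15 residual degrees of freedom for hippocampus, hypothalamus and brain stem. Pairs of regions were compared with the mouse as a fixed block, and means over regions with the mouse as a random block (consensus correlation 0.136). P values were Benjamini-Hochberg adjusted over all genes tested. Ppp3ca, with 1 value throughout in hippocampus, was not tested there. The pairing of samples comes from the labels, since the 3 regions were taken from the same mouse.

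Covariation used deviations from group means and 100000 permutations within groups (Python 3.11.15, numpy 2.4.6), adjusted over 108 and 27 relations. Named were the 9 genes, for each of them the gene with the highest mean r over the 3 regions, and called genes of the lists, at most 4 a list and comparison. The methods were tested on simulated data with 200 genes changed. Promoter sequence came from RefSeq (GRCm38.p6). Alternatives were ordinary p values, a floor of 5 on the mean log2 value, medians of samples removed, renewed quantile normalization by region, a fit of the compared groups alone, no block, no samples of A260/A280 under 1.8, a neuron marker covariate, r without the 2 farthest mice, and leaving out each mouse.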

Additional observations from a re-analysis of the deposited data

Results flagged for a closer look

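Of 99 groups of 4 or 5 samples (9 genes, by region, tumor status and time of day), 5 held a sample far from the others by Dixon's test, and chance alone flags about 1 in 20 groups. All 5 are low values. Fos in hypothalamus was 8.88 in the tumor-bearing mouse 29 at mid light, against 9.99 to 10.34 in the other 4 mice. Atf3 in hypothalamus was 4.55 in the tumor-bearing mouse 1 at mid light, against 5.44 to 5.71 in the other 4, and 4.72 in the vehicle injected mouse 22 at mid light, against 5.64 to 5.69 in the other 3. Maff in brain stem was 5.52 in the tumor-bearing mouse 23 at mid dark, against 6.07 to 6.20 in the other 4. Jun in brain stem was 9.44 in the tumor-bearing mouse 19 at mid dark, against 9.53 to 9.57 in the other 4.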

How the results depend on the processing

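The 29 counts of members called were recomputed with each of 20 mice left out and under those of the other settings that apply to them, 3 to 7 each, and 20 of them stayed unchanged or within 1.5 times throughout. Single values were followed only for genes and pairs that passed in at least 1 setting. Of these values none changed sign, 1265 were labelled the same, 74 lost their call and 34 gained one. The 1265 include r without the 2 farthest mice, which had no p value and were judged by sign alone. For dark minus light in hippocampus the count fell from 1 to 0 with ordinary p values, without samples of A260/A280 under 1.8 and with the neuron marker covariate, and in vehicle injected mice of that region also with only the groups compared, in each case through Myc (adjusted p 0.0514 to 0.116). In hypothalamus of tumor-bearing mice the count was 0 in place of 1 when only the groups compared were fitted. Without samples of A260/A280 under 1.8 the brain stem count was 1 in place of 2, and in vehicle injected mice 1 (Jun, 0.46, adjusted p = 0.0242) in place of 0. With the neuron marker covariate 8 pairs covaried in place of 3, and the brain stem count for dark minus light was 3 in place of 2, through Arc. The causes of these changes were not tested.

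Over the fits that lacked 1 mouse, the dark minus light count ran from 0 to 1 in hippocampus and in its vehicle injected mice, from 1 to 2 in hypothalamus, from 2 to 3 in brain stem and from 0 to 1 in its vehicle injected mice (Jun, without mouse 2), and the count for its difference between regions from 0 to 1. Pairs that covaried within a region numbered 3 to 6, and relations between regions (a gene in a pair of regions, of 27) 0 to 4. Egr1 in hypothalamus stayed between -1.11 and -0.97. Without the mouse as a block, the counts for pairs of regions were again 8, 8 and 4, those for the mean of the regions 4 (phase) and 0 (tumor), and that for the difference between regions 0, so the block changed no count. Depth could not be assessed.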
